A study of Mus musculus with 3 samples.

Results

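The respiratory chain and the ATP synthase are built from the products of 2 genomes, and both sets of genes were counted in single-cell RNA sequencing (scRNA-seq) libraries of the mouse medial prefrontal cortex (mPFC) at postnatal day 5 (P5). Genes were taken by symbol: those that start with mt-, *Nduf*, *Uqcr*, *Atp5* or *Cox* followed by a digit, together with *Sdha*, *Sdhb*, *Sdhc*, *Sdhd* and *Cyc1*. This rule found 113 of the 14933 genes of the deposited table of filtered cells. Of these, 13 are the protein-coding genes of the mitochondrial genome (mt- genes) and 100 are nuclear. By symbol, 38 nuclear genes belong to complex I, 4 to complex II, 9 to complex III, 16 to complex IV and 15 to the ATP synthase, and 18 encode assembly factors or other proteins. *Ndufa4* is counted with complex I by its symbol, although its product is known as a subunit of complex IV.

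Complexes I to IV pass electrons from NADH and succinate to oxygen in the inner mitochondrial membrane, and complexes I, III and IV pump protons while doing so. The ATP synthase lets the protons flow back and makes ATP, which neurons need for ion pumping and synaptic activity. The mitochondrial genome encodes core membrane subunits of complexes I, III and IV and of the ATP synthase and is transcribed inside the organelle as long transcripts that are then cut and polyadenylated. Complex II and most other subunits are nuclear, translated in the cytosol and imported. Several complex IV subunits exist as paralogs with tissue-restricted expression.

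Cells with tdTomato were sorted by FACS from C57Bl6 mice and gave 3 libraries, 1 per genotype: wild-type for *Tbr1*, heterozygous (*Tbr1* f/+) and homozygous (*Tbr1* f/f) for its loss in layer 5. All 3 carried *Rbp4-cre*, a transgene active in neurons of cortical layer 5, and the tdTomato reporter, and the floxed *Tbr1* allele loses exons 2 and 3 after Cre. How many animals entered a library is not stated in the sources used here. With 1 library per genotype there is no replicate error, no test and no p-value. The intervals given are exact 95% intervals that cover counting error only, and a difference between libraries cannot be told apart from a difference between genotypes.

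The authors' lists split the 17396 filtered cells into typical neuronal cells, which they kept for differential expression, atypical neuronal cells and all other filtered cells. Typical cells numbered 1778 (wild-type), 5357 (heterozygous) and 3935 (homozygous), atypical cells 304, 107 and 462, and other cells 2873, 1398 and 1182. Unique molecular identifiers (UMIs) in typical cells totalled 3670646, 10418228 and 6074494, with medians of 1901, 1743 and 1375 per cell. Levels are counts per 1e+06 UMIs of the summed cells (CPM). The counts mark 3′ ends and were not divided by transcript length. Barcodes found in more than 1 library numbered 140. *Tbr1* stood at 27.5, 30.7 and 22.4 CPM in typical cells of the wild-type, heterozygous and homozygous library. These 3′ counts do not read the deleted exons, so they do not check the genotype labels.

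The label of the typical cells was set against marker lists. The 7 excitatory markers summed to 2114, 2528 and 3207 CPM in typical cells and to 650.3, 1937 and 1301 CPM in other cells. The 8 astrocyte markers summed to 6982, 6050 and 6909 CPM in typical cells, as high as the 6006, 5684 and 5638 CPM of other cells, with no marker of the list at 0. Markers of vessels, meninges and blood were fewer in typical cells and highest in the wild-type library: the 8 endothelial markers summed to 117, 34.4 and 58.3 CPM, the 8 meningeal fibroblast markers to 314, 34.0 and 46.6 CPM with *Lum* at 0 in wild-type, and the 5 blood markers to 345, 44.6 and 85.8 CPM. Their part in the differences between libraries was not tested. *Malat1*, a nuclear noncoding RNA, was at 1130, 348 and 594 CPM in typical cells against 33113, 14926 and 26359 CPM in other cells. The shares, pair ratios and some genes below are therefore given beside the empty droplets of the same library, defined here as barcodes of at least 100 and below 500 UMIs. In these empty droplets *Malat1* was at 3186, 1931 and 1908 CPM, above the typical cells of each library.

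Sequences are shown first for the places where members share bases, since these bear on the counts of mt- genes. *mt-Atp8* and *mt-Atp6* are read from 1 bicistronic transcript and overlap by 43 bases, so a read within the overlap belongs to both genes. The whole of *mt-Atp8* (chrM:7766-7969, plus strand, GRCm38, GENCODE) is printed with the bases shared with *mt-Atp6* in capitals. *mt-Nd4l* and *mt-Nd4*, also a bicistronic pair, overlap by 7 bases, which are in capitals in the last 60 bases of *mt-Nd4l* (chrM:10114-10173, plus strand).
mt-Atp8: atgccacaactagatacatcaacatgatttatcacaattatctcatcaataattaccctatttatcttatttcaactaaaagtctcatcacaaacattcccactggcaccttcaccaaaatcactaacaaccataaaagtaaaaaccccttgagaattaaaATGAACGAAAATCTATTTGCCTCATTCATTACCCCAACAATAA
mt-Nd4l: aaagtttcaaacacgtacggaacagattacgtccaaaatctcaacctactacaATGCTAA

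Near-copies of members elsewhere in the genome can take or split reads. For 6 mt- genes, *mt-Co1*, *mt-Co2*, *mt-Atp6*, *mt-Co3*, *mt-Nd3* and *mt-Nd4l*, over 50% of the 31-base words of the last 400 bases also occurred in another annotated gene, a nuclear copy. Among nuclear members this held for 9, *Ndufs3*, *Ndufs5*, *Atp5l*, *Atp5h*, *Uqcrb*, *Cox7c*, *Cox16*, *Atp5g2* and *Atp5o*, and the levels of these 15 genes are uncertain to that extent.

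Nuclear subunit genes are known to carry promoter motifs of NRF1, GABP, ERR and YY1. Promoters of RefSeq (GRCm38.p6, 250 bases before to 50 after the start) were found for 79 of the 100 nuclear members, 66 of them subunit genes. The NRF1 letters, GCGC and TGCGC with any 1 base between them, searched on both strands, were in 25.8% of the 66 subunit promoters and in 10.5% of 11010 promoters of other genes in the table. CCGGAAG, for GABP, was in 24.2% against 17.97%, TCAAGGTCA, for ERR, in 3.03% against 0.363%, and AAGATGGCG, for YY1, in 10.6% against 3.19%. The ERR and YY1 shares rest on only 2 and 7 of the 66 subunit promoters. The 250 bases before the start are printed for the 3 subunit genes with the most matches, *Cox6a1* (chr5:115348959-115349208), *Atp5h* (chr11:115419920-115420169) and *Sdhd* (chr9:50603850-50604099), all on the minus strand, with NRF1 and GABP letters in capitals on either strand. A match is a stretch of letters and not a measured site.
Cox6a1: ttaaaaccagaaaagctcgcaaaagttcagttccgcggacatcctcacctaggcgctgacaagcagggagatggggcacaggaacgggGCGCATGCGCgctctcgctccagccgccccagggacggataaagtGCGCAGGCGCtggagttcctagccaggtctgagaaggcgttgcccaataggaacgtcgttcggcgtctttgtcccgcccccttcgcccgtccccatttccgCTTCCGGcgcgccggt
Atp5h: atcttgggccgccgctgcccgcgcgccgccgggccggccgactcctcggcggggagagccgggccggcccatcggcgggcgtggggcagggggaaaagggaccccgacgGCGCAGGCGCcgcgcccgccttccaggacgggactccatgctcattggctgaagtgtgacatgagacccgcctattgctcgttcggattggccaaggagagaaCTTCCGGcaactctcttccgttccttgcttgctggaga
Sdhd: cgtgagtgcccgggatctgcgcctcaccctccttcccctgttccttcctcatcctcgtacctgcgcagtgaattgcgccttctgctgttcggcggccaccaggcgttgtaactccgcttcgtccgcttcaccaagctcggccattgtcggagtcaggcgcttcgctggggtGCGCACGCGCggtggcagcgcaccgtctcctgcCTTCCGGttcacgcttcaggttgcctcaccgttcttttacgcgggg

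The mt- genes took a larger share of UMIs in both mutant libraries than in the wild-type library, whereas the share of the nuclear members differed little in typical cells. In typical cells the 13 mt- genes held 10.7% of UMIs in wild-type, 15.7% in heterozygous and 12.8% in homozygous cells. The 100 nuclear members held 8.001%, 7.88% and 8.32%. The order wild-type, homozygous, heterozygous of the mt- share was also found in atypical cells, at 9.78%, 14.0% and 19.3%, and in other cells, at 4.96%, 7.55% and 12.5%. Empty droplets had the same order, at 12.2%, 14.0% and 16.4%. Outside typical cells the nuclear share was also higher in both mutant libraries, at 7.25%, 8.46% and 8.47% in atypical cells and 4.78%, 6.29% and 5.73% in other cells of the wild-type, heterozygous and homozygous library. In empty droplets it was 7.94%, 7.60% and 8.22%. On the log2 scale the mt- sum of typical cells was above wild-type by 0.56 (0.55 to 0.56) in heterozygous and by 0.26 (0.26 to 0.27) in homozygous cells. The nuclear sum differed by -0.02 (-0.03 to -0.02) and 0.06 (0.05 to 0.06). As raw UMIs per cell, which keeps the lower depth of the homozygous library, its mt- and nuclear sums turned to -0.16 and -0.36, and with mt- UMIs left out of the denominator the nuclear sum of heterozygous cells turned to 0.061. In other cells the nuclear sum was above wild-type by 0.39 (0.39 to 0.40) and 0.26 (0.25 to 0.27). There were 1.34, 1.997 and 1.54 mt- UMIs per nuclear member UMI in typical cells of the wild-type, heterozygous and homozygous library, and 1.54, 2.16 and 1.70 in empty droplets.

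**Figure D1:**
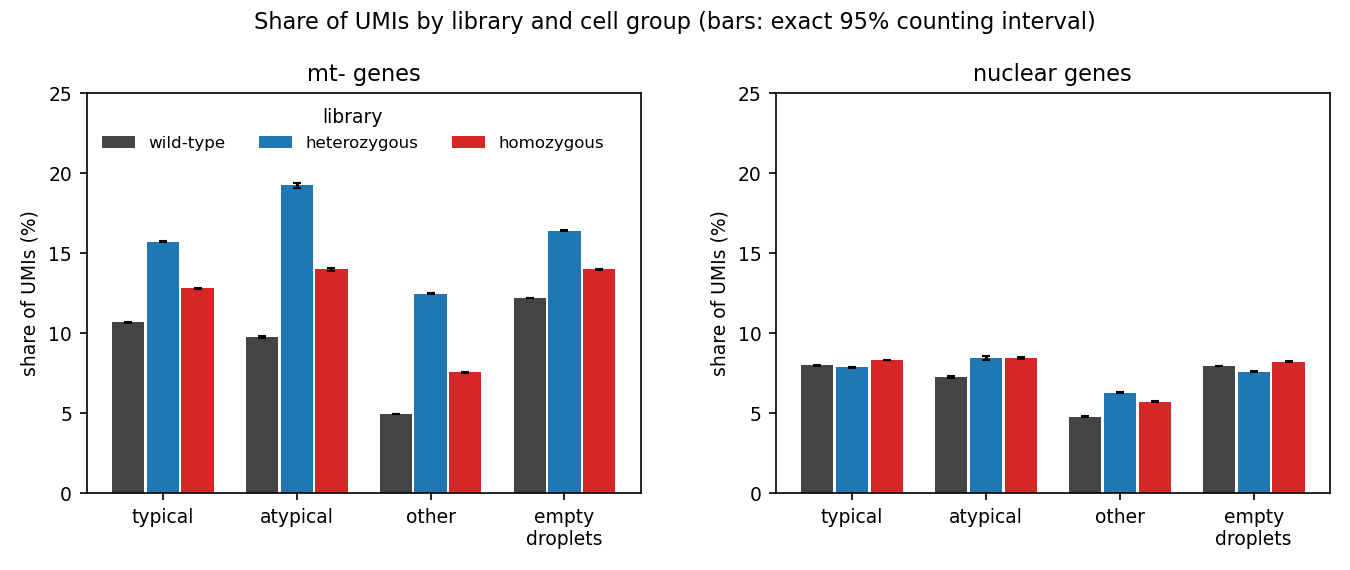
Share of UMIs, in percent, of the 13 mt- genes (left) and the 100 nuclear members (right) in typical, atypical and other cells and in empty droplets, with 1 bar per library and exact 95% counting intervals. The mt- share is highest in the heterozygous and lowest in the wild-type library in each of the 4 groups, whereas the nuclear share of typical cells lies between 7.88% and 8.32%.

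The higher mt- share of the mutant libraries was spread over their cells. The median typical cell had 10.4% mt- UMIs in the wild-type library (5th to 95th percentile 7.18% to 15.0%), 15.4% in that of heterozygous mice (10.3% to 22.3%) and 12.5% in that of homozygous mice (8.32% to 18.4%), so the ranges of cells overlapped. Cells with over 20% mt- UMIs made up 0.787%, 11.9% and 2.62% of typical cells. By depth, among typical cells of 1000 to 1599 UMIs the mt- share was 10.3%, 15.6% and 12.85%, among those of 1600 to 2399 UMIs 10.7%, 15.7% and 12.7%, and among those of 2400 to 3999 UMIs 10.9%, 15.9% and 12.85%. The order of the libraries was the same in each of these ranges. Across typical cells the mt- share and the nuclear share of a cell had a Spearman rho of 0.31 (n = 1778), 0.29 (n = 5357) and 0.31 (n = 3935), and across other cells of 0.57 (n = 2873), 0.68 (n = 1398) and 0.65 (n = 1182). The 2 shares of a cell have the same denominator and come from the same library.

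The mt- genes did not differ between libraries by 1 common factor. In typical cells *mt-Atp6*, a subunit of the proton channel of the ATP synthase, stood at 18163 CPM in wild-type cells and at 37033 (heterozygous) and 28765 CPM (homozygous) in those of mutants, a log2 ratio to wild-type of 1.03 (1.02 to 1.04) and 0.66 (0.65 to 0.68). *mt-Atp8*, which precedes it on the same transcript, was at 493, 399 and 235 CPM, or -0.30 (-0.38 to -0.22) and -1.07 (-1.17 to -0.97). The ATP synthase genes thus held both the highest and the lowest ratios of the mitochondrial genome in the homozygous library.

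Complex IV genes lay between these. *mt-Co3*, which follows *mt-Atp6* along the genome, was at 27799, 33305 and 27284 CPM, higher by 0.26 (0.25 to 0.27) in heterozygous cells and at -0.03 (-0.04 to -0.02) in homozygous ones. *mt-Co1*, the catalytic subunit, was at 15990, 20460 and 18643 CPM, with log2 ratios of 0.36 and 0.22, and *mt-Co2* at 6381, 8801 and 7519 CPM, with 0.46 and 0.24. The only mitochondrial gene of complex III, *mt-Cytb*, was at 12304, 18906 and 14322 CPM, with 0.62 (0.60 to 0.63) and 0.22 (0.20 to 0.24).

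Among the complex I genes *mt-Nd1* was at 14854, 23462 and 19637 CPM and had the highest log2 ratios of its complex in the heterozygous library, 0.66 (0.65 to 0.67), and 0.40 in the homozygous one. *mt-Nd4* had 0.59 and 0.22 and its partner *mt-Nd4l* 0.64 and 0.43. *mt-Nd5* had 0.49 and 0.03, the latter with an interval that includes 0. *mt-Nd2* was at 1938, 2205 and 1690.0 CPM and was higher in the heterozygous (0.19) but lower in the homozygous library (-0.20), and *mt-Nd3*, at 992, 862 and 760.2 CPM, was lower in both (-0.20 and -0.38). *mt-Nd6*, the only one on the minus strand, had 211, 485 and 365 UMIs and ratios of -0.30 (-0.54 to -0.06) and 0.06 (-0.18 to 0.32).

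Of the 13 mt- genes, 7 were at least 1.3-fold higher and 0 at least 1.3-fold lower in the heterozygous library, against 12.7% and 7.46% of the 4261 genes whose mean over the typical cells reached 20 CPM. In the homozygous library 3 were higher and 2 lower, against 11.8% and 6.29%. Both ratios share the wild-type library.

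The ratio of *mt-Atp6* to *mt-Atp8* separated the wild-type library from both mutant libraries in every group of droplets. The groups of a library are not independent of each other, and *mt-Atp6*, *mt-Co3* and *mt-Nd4l* are among the genes with near-copies named above. The direction of single genes did not hold in every group: in other cells, heterozygous over wild-type, *mt-Atp8* had 0.38, *mt-Nd3* 0.66 and *mt-Nd6* 0.57, all below 0 in typical cells, and homozygous over wild-type *mt-Co3* had 0.31 and *mt-Nd2* 0.06, again below 0 in typical cells. *mt-Atp6* had 36.8 UMIs per *mt-Atp8* UMI in typical cells of the wild-type library (35.2 to 38.6), 35.5 in atypical cells, 34.6 in other cells and 42.2 in empty droplets. The heterozygous library had 92.8 (90.0 to 95.7), 97.0, 101 and 83.8 in the same groups, and the homozygous library 122 (116 to 129), 119, 105 and 102. No group of the wild-type library overlapped any group of a mutant library, while within a library the groups differed by less than 1.3-fold. *mt-Nd4* per *mt-Nd4l*, the other bicistronic pair, was 9.64, 9.30 and 8.34 in typical cells and 9.88, 10.7 and 9.41 in empty droplets. *mt-Co3* per *mt-Atp6* was 1.53, 0.899 and 0.949 in typical cells, 1.64, 0.848 and 0.966 in other cells and 1.65, 1.03 and 1.10 in empty droplets.

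**Figure D2:**
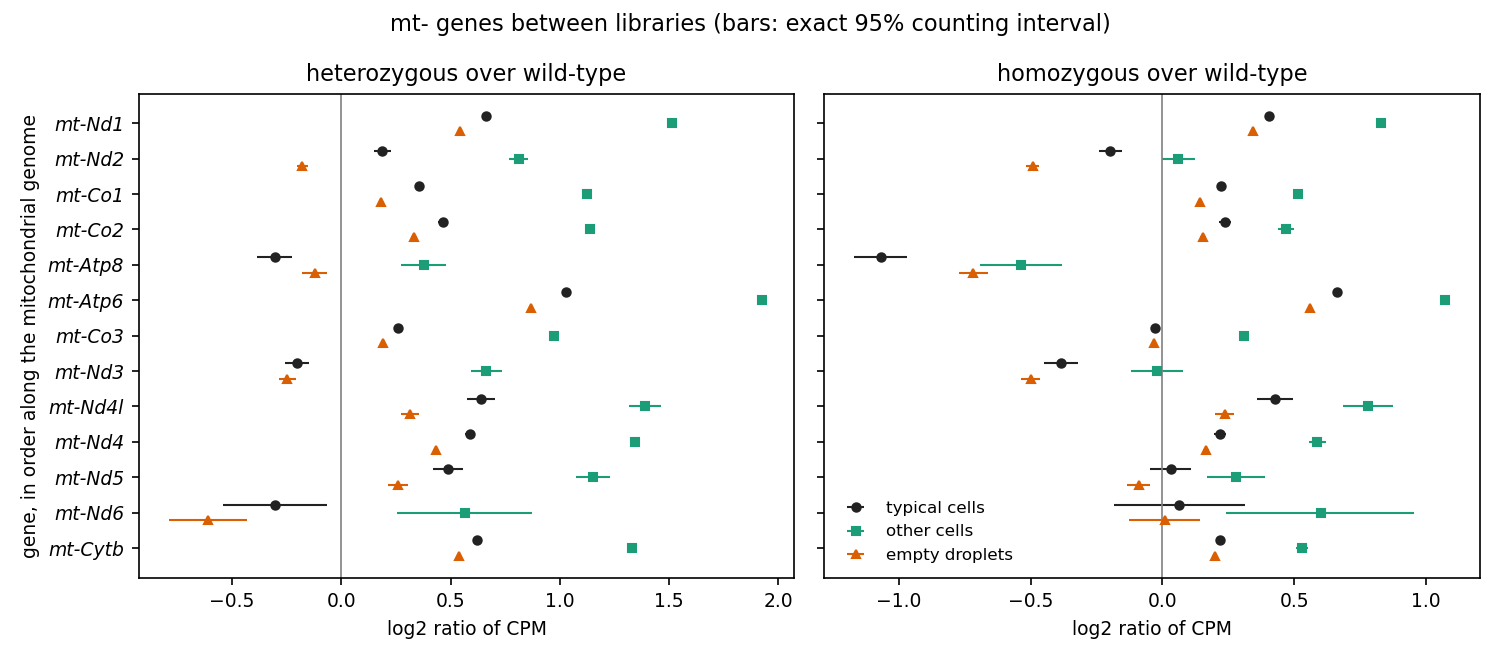
Log2 ratio of CPM of each mt- gene, heterozygous over wild-type (left) and homozygous over wild-type (right), in typical cells, other cells and empty droplets, with exact 95% counting intervals and genes in their order along the mitochondrial genome. *mt-Atp6* lies right of *mt-Atp8* in each group of droplets, with *mt-Atp8* left of 0 except in other cells of the heterozygous library (0.38).

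Nuclear members were close to even between libraries. Of the 100, 87 had a mean of at least 20 CPM over the typical cells of the 3 libraries and 28 had at least 1000 CPM. *Ndufaf6* at 23.9 CPM was the lowest kept, and *Cox16* at 19.9 CPM the highest left out, followed by *Cox18* at 18.3 CPM and *Cox10* at 15.3 CPM, all of them needed for complex IV assembly except *Ndufaf6*, a complex I assembly factor. In the heterozygous library 3 of the 87 were at least 1.3-fold higher and 2 at least 1.3-fold lower, fewer than the 12.7% and 7.46% of all 4261 genes. In the homozygous library 2 were higher and 1 lower, against 11.8% and 6.29%. The sets differ in level: 78 of the members reached a mean of 100 CPM, against 1237 of the 4261 genes. Over those 1237 genes the shares were 9.94% higher and 8.89% lower in the heterozygous library, and 9.05% and 6.95% in the homozygous one. The median log2 ratio of the 87 members was 0.06 and 0.11, beside 0.06 and 0.08 over all genes. Homozygous over heterozygous, 2 were higher and 0 lower, against 2.72% and 1.9%. Each of these higher counts includes *Cox6a2*, which was under 20 CPM in wild-type and passed the filter through the mutant libraries.

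By complex, complex II had the highest sums relative to wild-type in typical cells, 0.27 (0.20 to 0.34) in heterozygous and 0.25 (0.17 to 0.33) in homozygous cells, from 555, 668 and 659 CPM. Complex II is the succinate dehydrogenase shared with the TCA cycle and has no mitochondrial subunit. Complex I had 0.05 (0.04 to 0.07) and 0.13 (0.12 to 0.14), complex III -0.01 (-0.03 to 0.01) and 0.17 (0.15 to 0.19), and the ATP synthase -0.02 (-0.03 to -0.01) and 0.05 (0.03 to 0.06). Complex IV was lower, at -0.10 (-0.11 to -0.09) and -0.04 (-0.05 to -0.03). In the same 2 comparisons the mt- sums were 0.58 and 0.29 for complex I, 0.62 and 0.22 for complex III, 0.32 and 0.09 for complex IV and 1.005 and 0.64 for the ATP synthase. The ATP synthase therefore had 1.19, 2.43 and 1.79 mt- UMIs per nuclear UMI in the 3 libraries, and complex IV 1.68, 2.25 and 1.84. In other cells nuclear complex IV had a higher share in both mutant libraries: 130313 of 8615518 UMIs in wild-type, 90329 of 4318403 in heterozygous and 47190 of 2661032 in homozygous. There *Sdhb* (267, 322 and 302 CPM) and *Sdhd* (80.1, 97.3 and 101 CPM) were higher in both, whereas *Sdha* (133, 131 and 129 CPM) and *Sdhc* (112, 110 and 86.4 CPM) were not.

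**Figure D3:**
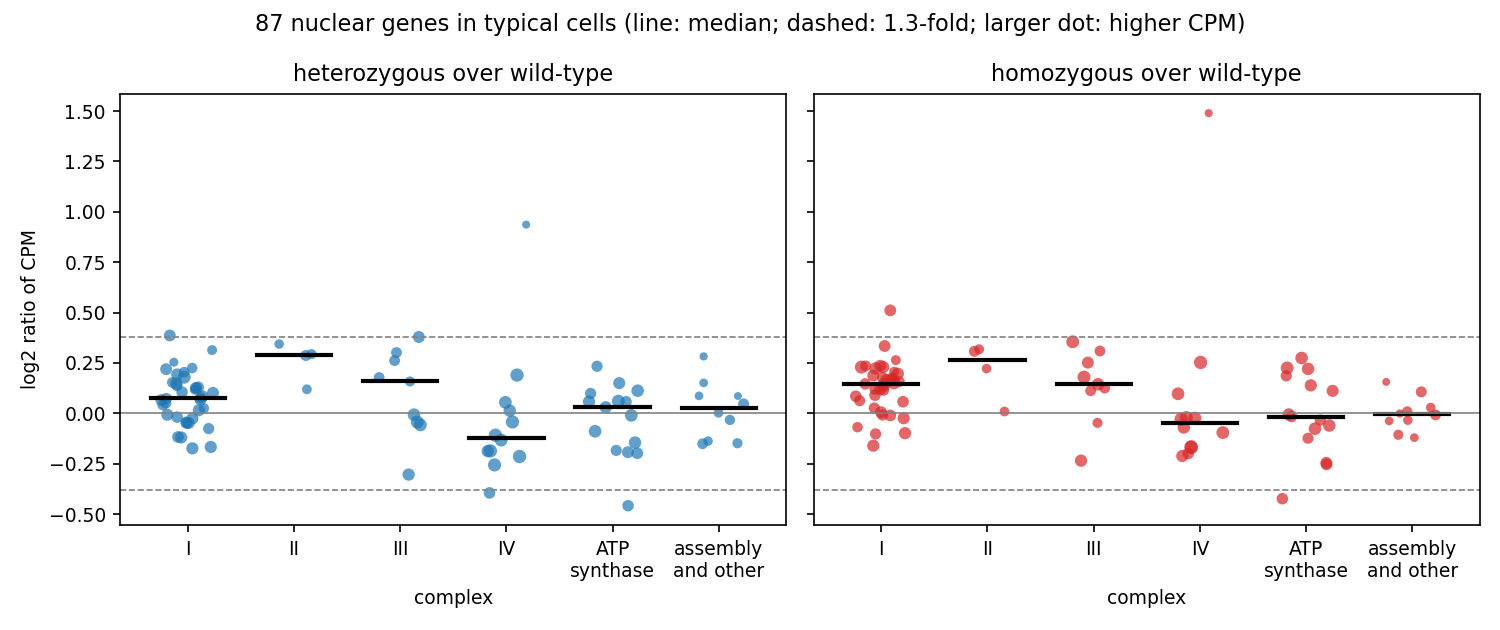
Log2 ratio of CPM of the 87 nuclear members with a mean of at least 20 CPM in typical cells, heterozygous over wild-type (left) and homozygous over wild-type (right), grouped by complex; lines are medians, dashed lines 1.3-fold, and larger dots higher CPM. Few genes pass the dashed lines, and the dot far above complex IV is *Cox6a2*, with 51 UMIs in the wild-type library.

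Individual complex I genes were led by *Ndufa1*, an accessory subunit encoded on the X chromosome, at 582, 760.5 and 829 CPM in the wild-type, heterozygous and homozygous library. Both mutant libraries lay above wild-type, by 0.39 (0.32 to 0.46) and 0.51 (0.44 to 0.58). *Ndufa11*, also an accessory subunit, had 0.22 and 0.33, and *Ndufa9* 0.31 and 0.26. *Ndufa4*, the member of this group with the most UMIs, was at 2510.2, 2842 and 2942 CPM. All 4 *Sdh* genes had ratios above 0 in both libraries: *Sdha*, the flavoprotein, was at 109, 134 and 136 CPM (0.29 and 0.32), *Sdhb*, the iron-sulfur subunit, at 272, 332 and 337 CPM (0.29 and 0.31), and *Sdhd*, a membrane anchor, at 73.8, 93.7 and 86.1 CPM (0.34 and 0.22). *Sdhc*, the other anchor, at 99.2, 108 and 99.8 CPM, had intervals that include 0.

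Among complex III genes the libraries differed gene by gene. *Uqcrb*, which has near-copies, was at 721, 938 and 859 CPM (0.38 and 0.25), and *Uqcrc1*, a core subunit, at 243, 299.8 and 301 CPM (0.30 and 0.31). *Uqcrq* was at 2098, 2016 and 2683 CPM, slightly lower than wild-type in the heterozygous library (-0.06, -0.10 to -0.02) and higher in the homozygous one (0.35, 0.32 to 0.39). *Uqcrh*, the hinge protein, was lower in both, at 1350 CPM in wild-type against 1093 and 1147 CPM (-0.30 and -0.24). *Uqcr11* had the most UMIs of the complex, at 2428, 2356 and 2749.9 CPM. Among ATP synthase genes this was *Atp5l*, a gene with near-copies, at 2154, 2246 and 2518 CPM, and among assembly factors *Cox14*, at 297, 306 and 319 CPM.

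Lower values were found mostly in complex IV and the ATP synthase. *Atp5g2*, which encodes 1 of the 3 versions of the c-ring subunit and has near-copies, was at 647, 471 and 483 CPM, lower by 0.46 (0.39 to 0.53) in heterozygous cells and by 0.42 (0.35 to 0.50) in homozygous ones on the log2 scale. Its paralogs encode the same mature protein. *Atp5g1*, at 1408, 1522 and 1641 CPM, had 0.11 and 0.22, and *Atp5g3*, at 392, 345 and 360.03 CPM, had -0.18 and -0.12. *Cox7a2l*, a supercomplex assembly factor, was at 637, 485 and 555 CPM (-0.40 and -0.20). *Cox4i1*, at 3474, 2909 and 3097 CPM, had -0.26 and -0.17, and *Cox8a*, the nuclear member with the most UMIs, at 4519.9, 3895 and 4018 CPM, had -0.21 and -0.17. *Cox7b* had -0.19 and -0.21, *Atp5d* -0.20 and -0.25, and *Atp5h*, another gene with near-copies, -0.19 and -0.25. *Cox6a1* went the other way within its complex, at 3330.2, 3798 and 3967 CPM (0.19 and 0.25).

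*Cox6a2*, the muscle form of this subunit, had the highest ratio of the 87 nuclear members past the level filter, at 51, 277 and 237 UMIs or 13.9, 26.6 and 39.0 CPM. It was under 20 CPM in wild-type and passed the filter on the mean only through the mutant libraries, where it was higher. Its log2 ratio was 0.94 (0.50 to 1.40) and 1.49 (1.05 to 1.96), and in empty droplets it was 0.75 (0.47 to 1.03) and 0.72 (0.48 to 0.97).

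The ratios of these genes were also computed outside typical cells. *Atp5g2* had -0.39 and -0.29 in other cells and -0.44 and -0.38 in empty droplets, and *Ndufa1* had 0.85 and 0.62 in other cells and 0.19 and 0.36 in empty droplets. *Uqcrq* had 0.56 and 0.64 in other cells and -0.08 and 0.35 in empty droplets, whereas *Cox8a* had 0.50 and 0.17 in other cells and -0.31 and -0.16 in empty droplets. More directly, all 78 nuclear members with at least 100 CPM were within 1.3-fold of the empty droplets of the same library in typical cells of each library. Over all 1237 genes at that level, 90.2%, 93.6% and 93.5% were within 1.3-fold in the wild-type, heterozygous and homozygous library. All 12 mt- genes at that level were within it as well. In other cells 39.7%, 96.2% and 52.6% of the 78 were within 1.3-fold of the empty droplets, beside 51.4%, 89.2% and 62.7% of all genes. Like most genes at that level, members of at least 100 CPM in typical cells could therefore not be told apart from free RNA by this margin. A similar profile does not give the amount of free RNA in a cell. The largest share of it that the marker lists allowed in typical cells was 26.2%, 8.43% and 17.8% of UMIs in the wild-type, heterozygous and homozygous library. Members below that level were not compared in this way, and the part of free RNA in the ratios between libraries was not tested.

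Other genes of energy metabolism were counted from lists, after the same filter on level. Of 16 TCA cycle and pyruvate dehydrogenase genes, 4 were at least 1.3-fold higher and 0 lower in the heterozygous library (12.7% and 7.46% of all genes), *Idh3a* (0.55), *Sucla2* (0.55), *Fh1* (0.52) and *Dlat* (0.76), and 6 were higher and 1 lower in the homozygous library (11.8% and 6.29%). Of 12 genes for cytochrome c, carriers, porins and related proteins, 2 were higher, *Vdac3* (0.44) and *Ckmt1* (0.44), and 0 lower in the heterozygous library, and 1 was higher and 0 lower in the homozygous one. Of 14 glycolysis genes 0 were past 1.3-fold in heterozygous cells and 1 was lower in homozygous ones, *Gapdh* (-0.48). Of 68 mitochondrial ribosomal protein genes 2 were higher and 1 lower, and then 5 higher and 3 lower. Only *Slirp*, an RNA-binding protein of the mitochondrial matrix, passed the level filter among 13 genes for mitochondrial transcription and its regulators, at -0.13 and 0.01. The 80 cytosolic ribosomal protein genes held 20.4%, 15.0% and 16.1% of UMIs, with 51 and 45 of them at least 1.3-fold lower and 0 higher.

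Cell groups of the same library were compared next, which avoids differences between libraries. Other cells had a smaller share of UMIs from members than typical cells in each library. The mt- sum was lower by 1.11 on the log2 scale in wild-type, by 0.33 in heterozygous and by 0.76 in homozygous mice, and the nuclear sum by 0.74, 0.32 and 0.54. With TMM factors the mt- ratios were -1.8251, -0.78 and -1.3854, and with the empty-droplet profile subtracted they were -2.09 in wild-type and -1.03 in homozygous mice. The nuclear ratios were also lower with TMM factors in each library, with values given in the section on processing. The counts of members below were made without TMM factors. As raw UMIs per cell the heterozygous ratios turned to 0.33 (mt-) and 0.34 (nuclear), and the homozygous nuclear ratio to 0.0057. Of 78 nuclear members with at least 100 CPM, 50 were at least 1.3-fold lower and 0 higher in the wild-type library, against 30.4% and 28.0% of 1351 genes. The heterozygous library had 17 lower and 0 higher, against 9.84% and 16.8%, and the homozygous library 40 lower and 0 higher, against 25.2% and 23.0%. The authors formed the neuronal cells by clustering on expression and filtered them again by UMIs and genes per cell. These ratios describe the groups they made. The highest UMI count of a cell was 3957, 3995 and 3915 in typical cells and 9263, 9648 and 9076 in other cells. Other cells had medians of 2489, 2541.5 and 1752.5 UMIs. Their mt- share was 7.06%, 11.8% and 9.29% at 1000 to 1599 UMIs and 4.14%, 13.2% and 4.95% at 4000 to 10000 UMIs. *Malat1* moved with this comparison, as given above, as did marker lists. In other cells of the wild-type, heterozygous and homozygous library blood markers summed to 8843, 4907 and 9528 CPM, meningeal fibroblast markers to 2094, 433 and 1624 CPM, endothelial markers to 1659.9, 809 and 2248 CPM and microglia markers to 1410.4, 1479 and 1278 CPM. In typical cells the highest of these sums was 345 CPM, for blood in the wild-type library, and microglia markers were at 58.8, 31.8 and 34.9 CPM. Their part in the ratios was not tested.

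Among the 78 nuclear members, a complex IV gene had the lowest ratio in other cells of each library, while *mt-Nd3*, at -1.24 in wild-type and -0.88 in homozygous mice, was lower still. *Cox6a1* was at 3330.2, 3798 and 3967 CPM in typical cells and at 1564, 2668 and 2162 CPM in other cells, with log2 ratios of -1.09, -0.51 and -0.88. *Cox8a* had -1.15, -0.44 and -0.81, *Cox6c* -1.11, -0.41 and -0.73, *Cox7b* -1.08, -0.41 and -0.76, and *Cox6b1* -1.03, -0.42 and -0.79. The named genes with the highest ratios lay closer to 0. *Atp5a1*, the alpha subunit of the ATP synthase, had 0.16, -0.04 and 0.16, *Sdha* 0.29, -0.03 and -0.08, and *Uqcrc1* 0.05, -0.05 and 0.14. *Sdhd*, which did not reach the 100 CPM filter, had 0.12, 0.05 and 0.24.

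The ratios followed coding length and, across the members, the level of the gene more closely. Length and level were not separated. The 36 members with under 400 coding bases had a median log2 ratio, other over typical, of -0.85 in wild-type, -0.35 in heterozygous and -0.61 in homozygous mice. The 10 members with 1000 or more coding bases had 0.15, -0.07 and -0.02. Among these, *Ndufv3*, with 1404 coding bases, was an exception at -0.99, -0.40 and -0.64. Over all genes at that level the medians were -0.46, -0.20 and -0.33 for short and 0.31, 0.13 and 0.15 for long coding lengths, so short genes were lower outside the members too. Across the 78 members, which are not independent of each other, Pearson's r of the ratio with the log of coding length was 0.73, 0.58 and 0.69, and across 1320 genes 0.27, 0.16 and 0.19, while Spearman's rho was 0.71, 0.57 and 0.70 across the members and 0.39, 0.34 and 0.34 across all genes. The ratio also followed the level of the gene, with r of -0.81, -0.75 and -0.76 across the members and of -0.24, -0.14 and -0.18 across 1339 genes, and with rho of -0.82, -0.75 and -0.77 against -0.34, -0.34 and -0.33.

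**Figure D4:**
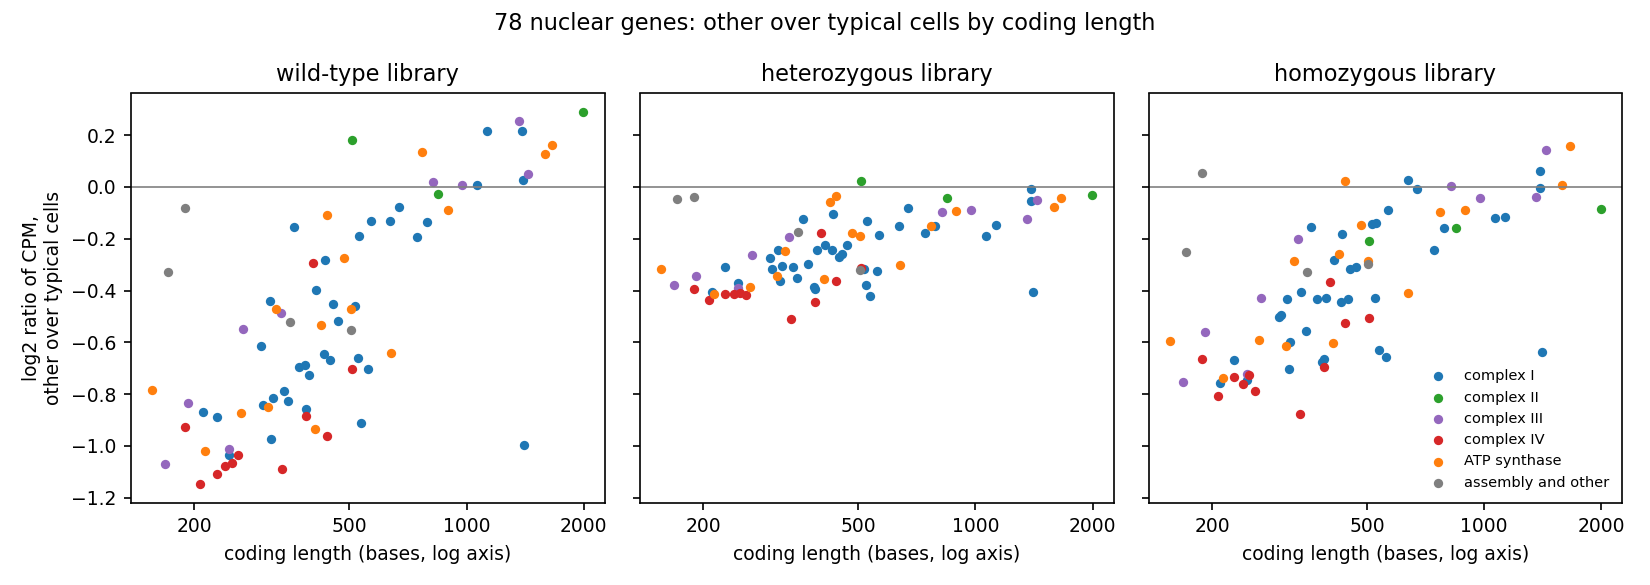
Log2 ratio of CPM, other over typical cells, against coding length in bases (log axis) for 78 nuclear members, with 1 panel per library and colors for complexes. Points tend to climb from short to long genes in each panel, with the long gene *Ndufv3* among the low points. The lowest point of each panel is a complex IV gene, at -1.15 for *Cox8a* in the wild-type library.

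Atypical cells differed less from typical cells, and not in the same direction in each library. The paper describes them by lower *Neurod6* and *Nrgn* and by high housekeeping gene levels. Their 7 excitatory markers summed to 768, 2640 and 1483 CPM in the wild-type, heterozygous and homozygous library, against 2114, 2528 and 3207 CPM in typical cells. In the heterozygous library this sum was thus not lower in atypical cells. The mt- sum, atypical over typical, was -0.13 (-0.14 to -0.12) for wild-type, 0.29 (0.28 to 0.31) in heterozygous cells and 0.13 (0.12 to 0.14) in homozygous ones. The nuclear sum was -0.14 (-0.16 to -0.13), 0.10 (0.08 to 0.12) and 0.02 (0.01 to 0.04). Among cells of at most 20% mt- UMIs the heterozygous mt- ratio was 0.081, and 45.8% of its atypical against 11.9% of its typical cells were over that limit. The limit cuts on the mt- share itself, so a fall of this ratio was built in. With TMM factors the wild-type ratios were -0.30 and -0.31. Of 77 nuclear members, 0 were higher and 2 lower by 1.3-fold in the wild-type library (8.59% and 13.0% of 1222 genes), 4 higher and 3 lower in the heterozygous (8.59% and 25.4%) and 1 higher and 1 lower in the homozygous library (7.69% and 15.5%). *Cox8a* was lower in each library, at -0.57, -0.45 and -0.48, as were *Cox6b1* at -0.39, -0.16 and -0.28 and *Ndufa4* at -0.30, -0.19 and -0.15. *Atp5b*, the catalytic beta subunit of the ATP synthase, was higher in each, at 0.26, 0.39 and 0.27, with *Ndufb5* at 0.31, 0.40 and 0.27. *Ndufb3* had 0.28, 0.30 (-0.03 to 0.61) and 0.34. *Atp5g3* had -0.16, 0.84 and 0.33. *Cox19* (40, 9 and 47 UMIs in atypical cells) and *Sdhd* (35, 21 and 57 UMIs) had ratios of -0.48, -0.85 and -0.35 and of -0.51, 0.05 and -0.17, with intervals that include 0 or, for *Sdhd* in wild-type, end at it. *Ndufs6* had 0.09, 0.52 and 0.27. *Malat1* was at 13185, 3505 and 2663 CPM in atypical cells, above typical cells in each library. All but 4 of the nuclear members were in the table from which the authors made these groups, whereas the mt- genes were not. The paper also describes a regression of its data on mitochondrial content, so the mt- share entered the processing behind the groups.

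Other cells were then split by marker lists, in order to see members that differ between cell types. A cell was assigned to a list with at least 5 UMIs from at least 2 of its genes and more than 2 times the UMIs of any other list, a rule chosen after the data were seen. Cells gated on astrocyte markers numbered 1033, 507 and 393, on microglia markers 164, 93 and 57, and on endothelial markers 223, 58 and 122, while 1102, 608 and 466 other cells met no list. In typical cells astrocyte markers summed to 6982, 6050 and 6909 CPM and excitatory markers to 2114, 2528 and 3207 CPM. The gate on astrocyte markers therefore does not set astrocytes apart from the profile of typical cells. The median astrocyte marker count in the other gates was 3 to 12.5 UMIs per cell. The part of free RNA or doublets in it was not tested, and no doublet caller was run.

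The mt- share kept the order of the libraries in these gates. It was 5.65%, 13.4% and 8.95% of UMIs in cells gated on astrocyte markers of the wild-type, heterozygous and homozygous library, 3.85%, 6.87% and 5.16% for microglia markers and 4.03%, 9.87% and 5.45% for endothelial markers. Their nuclear share was 4.98%, 6.73% and 6.15%, then 3.88%, 4.07% and 4.08%, then 4.32%, 3.88% and 4.48%. Cells gated on inhibitory neuron markers, with 109 and 67 cells, had 3.75% and 5.56% mt- UMIs in the wild-type and heterozygous library, and the homozygous library had fewer than 50 such cells.

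Tissue-restricted paralogs were far from even over the gates. *Cox4i2*, the version of subunit IV known from lung and vessels, was at 813 CPM (709.5 to 928) in 103 cells gated on mural markers (pericytes and smooth muscle), with a UMI in 75.7% of them. In the 7 other gates it was at most 16.6 CPM, in endothelial cells, where 4.96% of cells had a UMI, and cells gated on meningeal fibroblast markers had 0 UMIs, which allows at most 12.3 CPM. Its paralog *Cox4i1* was at 2638 CPM in mural cells and between 1221 and 2310.1 CPM in the others. *Ndufa4l2* behaved likewise, at 1343 CPM (1209 to 1488) in mural cells with a UMI in 92.2% of cells, and at most 54.6 CPM elsewhere. *Ndufa4* was lowest in the mural gate, at 599.8 CPM, against 727 to 1689.9 CPM in the other gates. In typical cells *Cox4i2* was at 7.63, 3.36 and 4.12 CPM and *Ndufa4l2* at 3.81, 2.78 and 2.14 CPM.

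Other paralogs were highest in other gates, not always clear of the mural gate. *Cox6b2*, the testis form of subunit VIb, was at 183 CPM (138 to 238) in 86 cells gated on meningeal fibroblast markers and at 59.6 CPM in 101 cells gated on oligodendrocyte lineage markers, against 5.04 to 44.2 CPM in the 6 other gates. For *Cox6b2* the interval of the oligodendrocyte lineage gate (38.6 to 88.0) overlapped that of the mural gate (22.8 to 77.1). *Cox7a1*, the heart and muscle form of subunit VIIa, was at 53.2 CPM (30.4 to 86.4, 16 UMIs) in the fibroblast gate. In the others it was at most 18.4 CPM, in the mural gate, with an overlapping interval (5.97 to 42.9). *Cox6a2* was at most 12.3 CPM, in the microglia gate. The common forms *Cox6b1* and *Cox7a2* ranged from 983 to 2070.3 CPM and from 579.96 to 1395 CPM. Gates were summed over the 3 libraries, and 62 of the 103 mural and 59 of the 86 fibroblast cells were from the wild-type library.

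**Figure D5:**
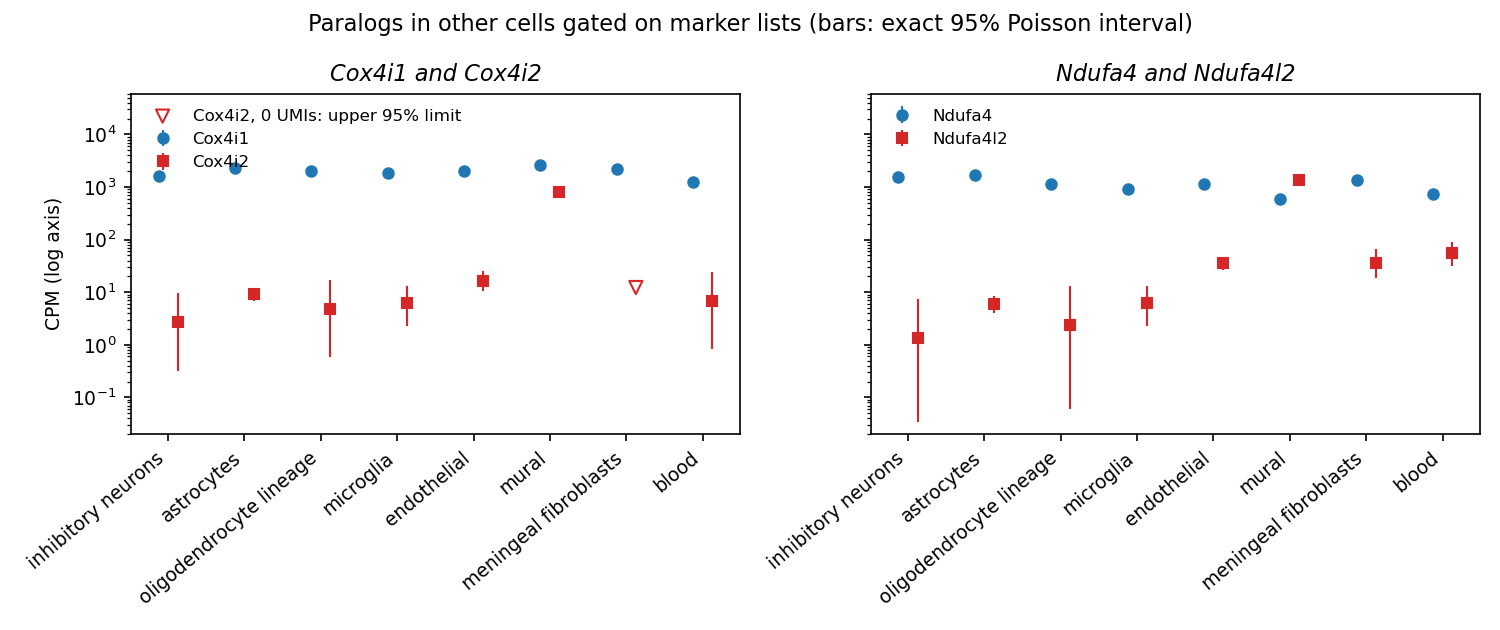
CPM (log axis) of *Cox4i1* and *Cox4i2* (left) and *Ndufa4* and *Ndufa4l2* (right) in other cells gated on 8 marker lists, summed over the 3 libraries, with exact 95% Poisson intervals; the open triangle marks the upper limit for 0 UMIs. *Cox4i2* at 813 CPM and *Ndufa4l2* at 1343 CPM stand out in the mural gate.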

How the data were processed

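Single-cell libraries were made with the 10X Chromium 3′ v2 chemistry from sorted cells of dissociated P5 mPFC. Reads were assigned to mm10 by the authors (Cell Ranger 2.0.1), and the deposited library matrices and table of filtered cells hold raw UMI counts. They kept cells by limits on mitochondrial share, UMIs and genes, and the largest mt- share in a kept cell was 29.9%. Their per-cell mitochondrial share was deposited as a fraction, and the recomputed share was within 0.01 of it in all 17396 cells. The UMI total of a cell equaled the listed one in 7796 cells, and elsewhere up to 2.65% of the listed UMIs were not in the filtered table. The neuronal table was deposited as natural log values, and its genes and cells were used only as lists; it holds 96 nuclear members and no mt- gene. The scaled score table of the authors was not used.

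Raw UMIs were summed per library and cell group (Python 3.11.15, numpy 2.4.6, scipy 1.17.1, pandas 2.3.3) and divided by all UMIs to give CPM, with exact Poisson, binomial or conditional binomial 95% intervals. A count past 1.3-fold was read against the share of all genes past it. The filter was a mean of 20 CPM between libraries and 100 CPM between cell groups. TMM factors for 1 alternative came from edgeR 4.0.16 in R 4.3.3. The ratio and its interval were tested on simulated data. No doublets were removed. The authors tested cells with MAST, which was not repeated, since cells are not replicates.

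Members and lists were chosen with earlier results of these data known. Named genes were all mt- members, the 5 highest and 5 lowest nuclear members of each comparison with a mean of 50 CPM or more, the most abundant member of each complex, paralogs, and the highest below the filter. *Cox8b* and *Cox8c* were not analysed here. A gene that this rule names is not reported here.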

Additional observations from a re-analysis of the deposited data

Results flagged for a closer look

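The mt- sum differed in direction between libraries when atypical cells were set against typical cells: its log2 ratio was below 0 in wild-type cells (-0.13) and above 0 in heterozygous (0.29) and homozygous (0.13) cells. In cells of at most 20% mt- UMIs the heterozygous ratio was 0.081, and 45.8% of atypical heterozygous cells were over that limit. This limit cuts on the mt- share itself, so a fall of the ratio was built in. The nuclear sum also differed in direction between libraries, at -0.14, 0.10 and 0.0248. The difference between libraries was not tested, since there is 1 library per genotype.

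Empty droplets, which are no cells of the filtered table, held the uneven ratio of neighboring mitochondrial genes. *mt-Atp6* per *mt-Atp8* was 42.2 in empty droplets of wild-type mice, 83.8 in those of heterozygous and 102 in those of homozygous mice, beside 36.8, 92.8 and 122 in typical cells.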

How the results depend on the processing

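Of 168 values recomputed for 20 results, 59 moved by less than their counting interval or, for counts, by less than 1.5 times, 102 moved by more and 7 changed sign. The intervals are narrow, so small shifts count as moves. Values are log2 ratios of the mt- or the nuclear sum, and where no construction is named the cause was not tested. With mt- UMIs left out of the denominator, heterozygous over wild-type was 0.64 (mt-) and 0.061 (nuclear, reversed), homozygous over wild-type was 0.30 (mt-) and 0.091 (nuclear), atypical over typical, wild-type was -0.14 (mt-) and -0.16 (nuclear), atypical over typical, heterozygous was 0.3547 (mt-) and 0.1653 (nuclear). There, atypical over typical, homozygous was 0.15 (mt-) and 0.045 (nuclear), other over typical, wild-type was -1.20 (mt-) and -0.83 (nuclear), other over typical, heterozygous was -0.39 (mt-) and -0.38 (nuclear), other over typical, homozygous was -0.85 (mt-) and -0.62 (nuclear). With TMM factors, heterozygous over wild-type was 0.56 (mt-) and -0.016 (nuclear), homozygous over wild-type was 0.24 (mt-) and 0.032 (nuclear), atypical over typical, wild-type was -0.30 (mt-) and -0.31 (nuclear), atypical over typical, heterozygous was 0.22 (mt-) and 0.029 (nuclear). There, atypical over typical, homozygous was 0.1453 (mt-) and 0.042 (nuclear), other over typical, wild-type was -1.8251 (mt-) and -1.46 (nuclear), other over typical, heterozygous was -0.78 (mt-) and -0.77 (nuclear), other over typical, homozygous was -1.3854 (mt-) and -1.16 (nuclear). As raw UMIs per cell, a scale that keeps differences in depth, heterozygous over wild-type was 0.47 (mt-) and -0.11 (nuclear), homozygous over wild-type was -0.16 (mt-, reversed) and -0.36 (nuclear, reversed), atypical over typical, wild-type was -0.021 (mt-) and -0.036 (nuclear), atypical over typical, heterozygous was 0.35 (mt-) and 0.16 (nuclear). There, atypical over typical, homozygous was 0.19 (mt-) and 0.088 (nuclear), other over typical, wild-type was -0.57 (mt-) and -0.20 (nuclear), other over typical, heterozygous was 0.33 (mt-, reversed) and 0.34 (nuclear, reversed), other over typical, homozygous was -0.22 (mt-) and 0.0057 (nuclear, reversed). With each cell weighted equally, homozygous over wild-type was 0.27 (mt-), other over typical, wild-type was -0.9951 (mt-) and -0.71 (nuclear), other over typical, heterozygous was -0.35 (mt-), other over typical, homozygous was -0.60 (mt-) and -0.4752 (nuclear). In cells of 1600 to 2400 UMIs, atypical over typical, wild-type was -0.15 (mt-) and -0.13 (nuclear), atypical over typical, heterozygous was 0.31 (mt-) and 0.13 (nuclear), other over typical, wild-type was -0.86 (mt-) and -0.66 (nuclear), other over typical, heterozygous was -0.37 (mt-) and -0.36 (nuclear). There, other over typical, homozygous was -0.51 (mt-) and -0.4454 (nuclear). Without the 5% of cells with the most UMIs, heterozygous over wild-type was 0.56 (mt-), homozygous over wild-type was 0.27 (mt-), atypical over typical, homozygous was 0.12 (mt-), other over typical, wild-type was -1.03 (mt-) and -0.72 (nuclear). There, other over typical, heterozygous was -0.29 (mt-) and -0.31 (nuclear), other over typical, homozygous was -0.64 (mt-) and -0.51 (nuclear). A limit on mt- UMIs cuts on the measured share itself. In cells of at most 20% mt- UMIs, heterozygous over wild-type was 0.48 (mt-), homozygous over wild-type was 0.2450 (mt-), atypical over typical, heterozygous was 0.081 (mt-), atypical over typical, homozygous was 0.099 (mt-). There, other over typical, wild-type was -1.10 (mt-), other over typical, heterozygous was -0.36 (mt-) and -0.35 (nuclear). With the empty-droplet profile subtracted, heterozygous over wild-type was 0.63 (mt-), homozygous over wild-type was 0.31 (mt-), atypical over typical, wild-type was -0.16 (mt-) and -0.19 (nuclear), atypical over typical, heterozygous was 0.31 (mt-). There, atypical over typical, homozygous was 0.16 (mt-), other over typical, wild-type was -2.09 (mt-) and -1.13 (nuclear), other over typical, heterozygous was -0.37 (mt-) and -0.36 (nuclear), other over typical, homozygous was -1.03 (mt-) and -0.6847 (nuclear). With typical and atypical cells together, heterozygous over wild-type was 0.58 (mt-) and 0.00065 (nuclear, reversed), homozygous over wild-type was 0.30 (mt-) and 0.081 (nuclear). Of the nuclear members, the count at least 1.3-fold higher in heterozygous cells, 3, became 6 with mt- UMIs left out of the denominator (19.5% of all genes), 1 with each cell weighted equally (12.9%) and 1 in cells of 1600 to 2400 UMIs (15.8%), and the count lower, 2, became 0 with mt- UMIs left out (4.69%). At 1.5-fold 1 was higher (3.59%) and 0 lower (2.39%) in heterozygous, and 1 higher (2.96%) and 0 lower (1.95%) in homozygous cells. The higher gene was *Cox6a2* in both. Without a filter on level the counts were 7 (18.5%) and 5 (23.8%), then 4 (19.3%) and 3 (22.6%), and at a mean of 100 CPM 1 was higher in homozygous cells (9.05%). The empty-droplet share subtracted was set by the list with the lowest allowed share, 26.2%, 8.43% and 17.8% in typical cells, and other cells took the share of typical cells, which was chosen after the data were seen. No paired analysis was possible because the groups share only replicate number 1, and no replicate could be left out with 1 library per genotype. Depth limits genes of few UMIs, such as *Cox6a2* with 51 in wild-type.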

Other observations

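*Atp5k*, a small subunit of the ATP synthase, and *Ndufa6*, an accessory subunit of complex I, were among the nuclear members of at least 50 CPM with the highest ratio of the homozygous over the heterozygous library in typical cells, at 0.28 (0.25 to 0.32) and 0.23 (0.18 to 0.29) on the log2 scale, after *Uqcrq* at 0.41 (0.38 to 0.44). The lowest were the complex III genes *Uqcrc2*, at -0.21 (-0.33 to -0.08), and *Cyc1*, which encodes cytochrome c1, at -0.14 (-0.22 to -0.05). Across the 78 nuclear members this ratio had a Pearson's r of -0.52 with the log of coding length and of 0.44 with the level of the gene, against -0.11 and 0.06 across all genes (n = 1208 and 1225), and a Spearman's rho of -0.56 and 0.44 against -0.20 and 0.11. The members are not independent of each other.

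Of the wild-type library, the only one with at least 50 cells in the mural gate, 5.96% of UMIs in that gate were from nuclear members, against 3.88% to 5.19% in the 6 other gates with at least 50 cells.

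Barcodes outside the filtered table, with no fewer UMIs than the shallowest kept cell and at most 10000, numbered 88, 175 and 117 in the wild-type, heterozygous and homozygous library. Of these, 2, 67 and 28 had over 30% mt- UMIs.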
